A study of Mus musculus with 6 samples.

Results

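The constitutive subunits of the proteasome were followed in mouse pancreatic acinar cells, the exocrine cells that make digestive enzymes. Genes were chosen by symbol, as those named Psma, Psmb, Psmc or Psmd with a number, without the immune and tissue-specific subunits Psmb8, Psmb9, Psmb10, Psmb11 and Psma8 and without pseudogenes. The names took 35 of 23237 distinct symbols. Of these, 34 encode proteasome subunits or the chaperones numbered with them, 14 in the core particle and 20 in the regulatory particle. The remaining symbol, Psmc3ip, encodes a recombination factor named for its binding to Psmc3 and is described by itself.

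The proteasome is the protease that breaks down proteins tagged with ubiquitin. Its core particle is a barrel of α rings, which gate the entrance, and β rings, which carry the proteolytic sites. The regulatory particle caps the barrel: its ATPases unfold the substrate, and its other subunits bind and remove ubiquitin. In secretory cells such as acinar cells, the proteasome also degrades misfolded proteins returned from the endoplasmic reticulum.

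The control libraries (3) came from primary acinar cells of wild type C57BL/6J mice, and the conditional knock-out (cKO) libraries (3) from cells of the same strain labelled ERRgamma -/-. ERRγ, the product of Esrrg, is an orphan receptor that controls genes of oxidative metabolism. All cells were kept in Waymouth's medium with 2.5% serum, 0.25 mg/ml trypsin inhibitor, antibiotics and 25 ng/ml human epidermal growth factor, and 500 ng of total RNA went into each 3' tag library. The driver of the deletion, the deleted part, the time in culture, the age and sex of the animals and the purity of the cells are not stated by the labels. Nothing says that the libraries numbered 1 to 3 came from separate animals, so the p-values reflect the variation among the libraries alone, which may be technical.

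Totals were 23.0 M to 25.2 M counts in control and 15.2 M to 17.0 M in cKO (M, mega). Digestive enzyme genes took 79.6% to 81.8% of the control counts and 20.1%, 52.5% and 27.0% of the counts in cKO replicates 1, 2 and 3, so that cKO replicate 2 stands nearest to the controls. Esrrg itself had 0 counts in every control library and 0, 9 and 1 in cKO. The gene was thus not detected in the wild type controls, so a loss in cKO could not be seen. The deleted part also need not hold the 3' tag, and these counts do not check the labels. The marker sums are CPM on the TMM scale defined in the next paragraph, and falls and rises are meant against the majority of genes. On library totals fold changes lie higher by a median of 3.26 on the log2 scale. A sum that is lower here need not be a lower share of the library. Of the acinar markers, 6 of 6 fell, from a summed 340822 to 406163 CPM in control to 8953 to 51241 CPM in cKO. Fibroblast and stellate markers rose in 5 of 6 cases (713 to 807 against 3503 to 5024 CPM), leukocyte markers in 5 of 6 tested (40.5 to 55.2 against 129 to 305 CPM) and mesothelial markers in 3 of 3 (13.1 to 17.9 against 68.4 to 83.9 CPM). Of the duct markers 2 of 4 tested rose and 1 fell (127 to 155 against 99.3 to 109 CPM), and of the endothelial markers 1 of 4 rose and 1 fell (24.5 to 29.0 against 12.2 to 18.8 CPM). Of 5 islet markers 0 passed (545 to 895 against 393 to 808 CPM). No listed marker was at 0 in all libraries. In such bulk samples, fewer cells of a type and less RNA per cell cannot be told apart. The part of these other cells in the values below was not tested.

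Levels are CPM, counts per M counts of the TMM-scaled library size, given as mean ± SD over 3 libraries, and fold changes are log2 values, cKO against control, from the quasi-likelihood test of edgeR. TMM scaling centres on the majority of genes, and the median of all 13132 tested genes was 0.10. Fitted on library totals, all fold changes lie higher by a median of 3.26, and there 34 of 34 subunits were called higher in cKO, as were 96.4% of all tested genes. "Rose", "fell", "higher" and "lower" below are meant against the majority of genes, and every gene named below as fallen has a fold change above 0 on library totals.

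Of 34 subunits, all of which passed the filter on low counts, 1 rose and 7 fell at an adjusted p under 0.05, which is 23.5%, where 44.7% of all tested genes passed in either direction (24% higher, 20.7% lower). Psmb5, Psmb7, Psma2, Psmd6, Psmd3, Psmd12 and Psmd5 fell, and Psmd2 rose. The library values of the groups did not overlap for 15 subunits (44.1%), against 56.2% of all tested genes. Without cKO replicate 3 only 4 subunits passed (11.8%, against 33.3% of genes). With genes of at least 10 CPM in 3 libraries, 28 subunits were tested, of which 5 rose and 3 fell, against 68.4% of 4192 genes called and 34.4% called higher. With no filter 2 rose (18.4% of genes). The median fold change was -0.10, and 24 of 34 subunits lay below the median of all genes. A change of at least 2-fold was found in 2 subunits (5.88%), Psmb5 and Psmd6, and in 39.7% of all tested genes. The quartiles of the subunits' fold changes were -0.37 and 0.11, and those of all genes -0.60 and 0.98. The place of the subunits below the median of all genes was not kept under the 10 CPM filter. There the subunit median was 0.11 against 0.04 for all genes, and 12 of 28 subunits lay below.

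A p above the threshold does not show that a level stayed the same, and the intervals say how far it could have moved. The 95% interval of the fold change lay within 2-fold in either direction for 31 of 34 subunits, among them each of the 26 that did not pass. That was so for 25.1% of all tested genes, whose intervals were wider, with a median width of 1.36 against 0.68 for subunits. Subunits had 28 to 701 reads per control library and 118 to 4758 per cKO library, with Psma5 and Psmb2 the most thinly counted.

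**Figure D1:**
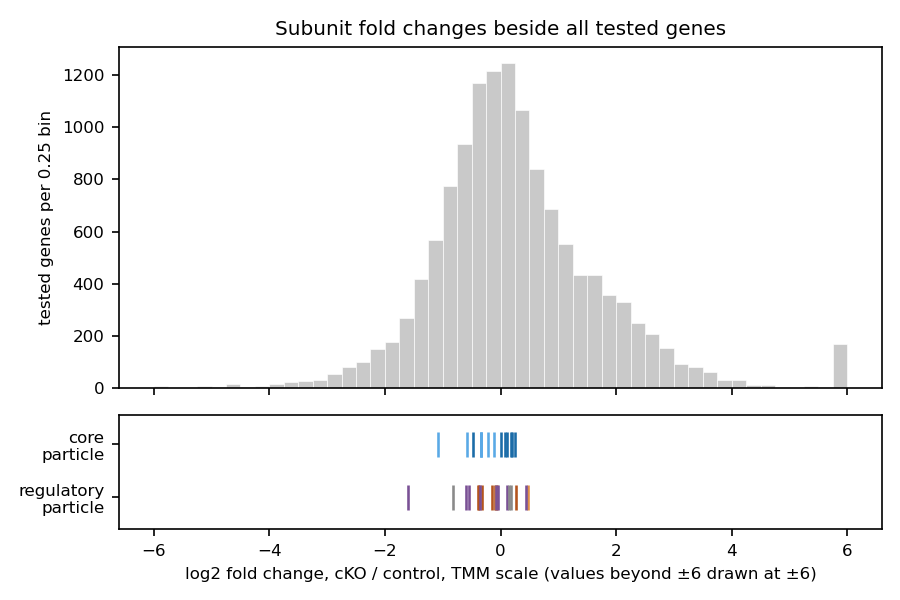
Histogram of the log2 fold change (cKO over control, TMM scale) of the 13132 tested genes in bins of 0.25, above, with 1 tick per subunit of the core and regulatory particle below. Subunits lie between -1.59 and 0.47, while other genes reach 9.88 (values beyond 6 in either direction are drawn at 6); on library totals each of the 34 subunits lies above 0.

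Of the 7 α ring genes 0 rose and 1, Psma2, fell, with a median of 0.11. Psma2 was at 53.0, 52.0 and 56.3 CPM in control and 39.9, 39.8 and 36.9 CPM in cKO. The cKO libraries lie close together and below each control library (log2 fold change -0.47 ± 0.14, SE; edgeR adjusted p = 0.0159). The call was lost without control replicate 3 or cKO replicate 3 and under the 10 CPM filter, the highest adjusted p being 0.0921. Psma7, the most abundant subunit transcript, was at 83.5, 82.6 and 86.2 CPM in control and 79.8, 95.8 and 79.4 CPM in cKO. The groups overlap, with cKO replicate 2 the highest of the 6 (0.01; 95% interval -0.31 to 0.34). Psma4 had the highest fold change of the ring, with 31.9, 30.6 and 35.7 CPM in control and 40.1, 37.3 and 39.7 CPM in cKO. Its groups do not overlap, yet it did not pass (0.25; interval -0.06 to 0.57; adjusted p = 0.180). Psma1 (0.11), Psma3 (0.07), Psma5 (0.20) and Psma6 (0.19) did not pass either. Under the 10 CPM filter Psma4 (0.47; adjusted p = 0.00913) and Psma6 (0.40; adjusted p = 0.0210) were called higher. Summed over the ring, the level was 228 ± 8.42 CPM in control and 227 ± 10.6 CPM in cKO.

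All 7 fold changes of the β ring were below 0, with a median of -0.34, although Psmb4 turned to 0.11 under the 10 CPM filter and Psmb2 to 0.0049 without control replicate 3. Psmb5 and Psmb7 fell and 0 rose. Both belong to the 3 subunits that carry the catalytic sites: Psmb5 the chymotrypsin-like, Psmb6 the caspase-like and Psmb7 the trypsin-like site. Psmb5 (chromosome 14, 54614119 to 54618022, minus strand, GRCm38) was at 48.0, 41.5 and 38.9 CPM in control and 19.5, 20.8 and 20.1 CPM in cKO. Every cKO library lies far below every control library (42.8 ± 4.70 against 20.2 ± 0.677 CPM; log2 fold change -1.09 ± 0.15, SE; edgeR adjusted p = 5.06e-05). Psmb7 was at 25.3, 22.3 and 26.0 CPM in control and 16.2, 15.7 and 17.3 CPM in cKO. Again the groups do not overlap (-0.58 ± 0.16; edgeR adjusted p = 0.00907, or 0.0514 under the 10 CPM filter). Psmb6 was at 31.4, 31.9 and 31.1 CPM in control and 24.9, 24.9 and 24.6 CPM in cKO. Both groups are tight and apart, and the adjusted p missed the threshold (-0.34; interval -0.66 to -0.03; adjusted p = 0.0688). Psmb6 passed in thinned counts (-0.46; adjusted p = 0.0279).

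The other β subunits, Psmb1 to Psmb4, have no catalytic site in the mature particle. Psmb1, the most abundant of the ring, was at 57.8, 60.2 and 57.9 CPM in control and 46.0, 45.5 and 48.0 CPM in cKO. Its groups do not overlap (-0.34; interval -0.64 to -0.03; adjusted p = 0.0685), and DESeq2 called it. Psmb4 had the smallest difference of the ring, with 33.8, 33.1 and 28.6 CPM in control and 29.0, 27.5 and 31.9 CPM in cKO, which overlap (-0.11). Psmb2 (-0.22) and Psmb3 (-0.34) overlapped as well. The catalytic subunits summed to 98.8 ± 5.07 CPM in control and 61.4 ± 0.725 CPM in cKO, a ratio of 0.621. The non-catalytic ones went from 111 ± 5.19 to 92.5 ± 2.86 CPM, a ratio of 0.834. Within a library, catalytic counts per non-catalytic count were 0.906, 0.855 and 0.912 in control and 0.662, 0.681 and 0.648 in cKO. This ratio does not depend on the scale of the library, and its groups do not overlap. The 3 catalytic genes are also the only subunits with a pseudogene named after them. Psmb7 in addition shares its 3' end with an exon of Nek6 on the opposite strand. The part of such reads in the ratio was not tested. The catalytic genes were not alike: their mean CPM in cKO over control was 0.471 for Psmb5, 0.669 for Psmb7 and 0.788 for Psmb6. The value of Psmb6 lay near those of the non-catalytic Psmb1 (0.792) and Psmb3 (0.793), while Psmb2 (0.853) and Psmb4 (0.927) were higher. A catalytic ratio without Psmb5 was not computed.

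The upstream sequences of Psmb5 and Psmb6 are shown because both hold a core of the antioxidant response element (TGACNNNGC, on either strand), through which Nfe2l1, the factor known to raise subunit genes when proteasome activity is short, binds DNA. The stretches run from 250 bases before the RefSeq start to the base before the first annotated start, on GRCm38.p6 (chr14:54618023-54618245, minus strand, and chr11:70525107-70525356, plus strand). Capitals mark the element.
Psmb5: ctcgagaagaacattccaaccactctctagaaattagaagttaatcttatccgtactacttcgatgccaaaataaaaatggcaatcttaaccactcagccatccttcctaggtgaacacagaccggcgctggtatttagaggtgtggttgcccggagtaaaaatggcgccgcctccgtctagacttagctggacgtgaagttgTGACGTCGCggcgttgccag
Psmb6: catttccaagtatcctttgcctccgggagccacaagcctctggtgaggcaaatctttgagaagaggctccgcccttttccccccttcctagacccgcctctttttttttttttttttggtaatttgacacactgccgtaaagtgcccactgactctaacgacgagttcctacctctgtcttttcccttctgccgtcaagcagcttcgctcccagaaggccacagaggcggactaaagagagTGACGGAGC
In these windows the element begins 47 bases before the start of Psmb5 and 9 bases before that of Psmb6. The match is one of letters and does not show binding.

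**Figure D2:**
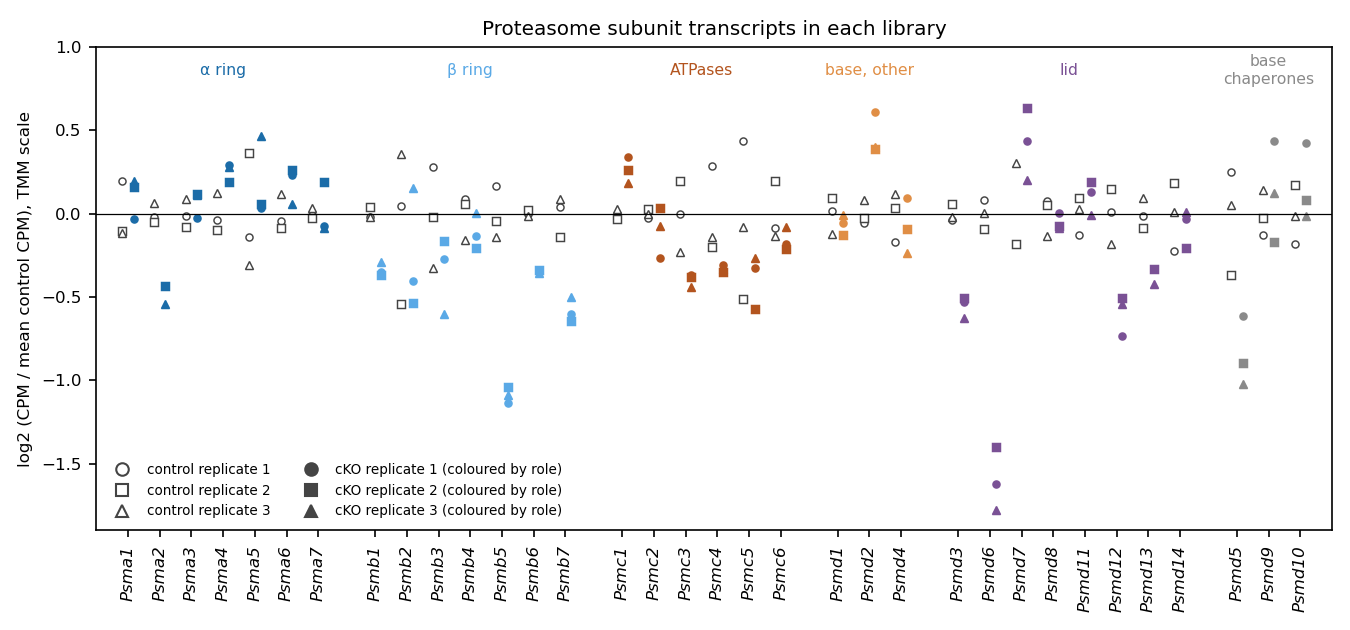
Level of each of the 34 subunits in each library, as log2 of its CPM (TMM scale) over the mean control CPM. Open symbols are control and filled ones cKO libraries, with a shape for each replicate number. Psmb5 and Psmd6 lie more than 1 below the control mean in every cKO library; on library totals all 34 lie above it.

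The ATPases of the regulatory particle form the ring that unfolds the substrate and opens the gate of the core. Of 6 genes 0 passed in either direction, with a median of -0.24 and a range from -0.40 to 0.26. Psmc3, the most abundant, was at 38.7, 44.3 and 33.0 CPM in control and 29.9, 29.7 and 28.5 CPM in cKO. The groups do not overlap, though control replicate 3 lies near the cKO values, and the adjusted p was 0.0517 (log2 fold change -0.40; interval -0.73 to -0.06). It passed without control replicate 3 or cKO replicate 2, in thinned libraries, and with the enzyme genes left out of the library size. The 3' end of Psmc3 shares its last 500 bases with an exon of Slc39a13 on the opposite strand, and the strand setting of the counting is not given, so reads of the pair may mix. Psmc1 stood on the other side, with 23.3, 22.7 and 23.8 CPM in control and 29.4, 27.9 and 26.4 CPM in cKO. Its groups do not overlap, and it did not pass (0.26; interval -0.06 to 0.59; adjusted p = 0.171). Under the 10 CPM filter Psmc1 was called higher (0.48; adjusted p = 0.00777). Psmc2 (-0.10), Psmc4 (-0.33; groups apart), Psmc5 (-0.37) and Psmc6 (-0.16) did not pass.

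The large scaffolds Psmd1 and Psmd2 and the ubiquitin receptor Psmd4 complete the base. Psmd2, which docks the shuttle factors that deliver substrates, was the only subunit of the 34 that rose. It was at 24.9, 25.3 and 27.3 CPM in control and 39.4, 33.8 and 34.1 CPM in cKO, with every cKO library above every control library (25.8 ± 1.30 against 35.8 ± 3.14 CPM; 0.47 ± 0.15, SE; edgeR adjusted p = 0.0208). The call was lost without control replicate 1, control replicate 2, cKO replicate 1 or cKO replicate 3, the highest adjusted p being 0.0770. Its partner Psmd1 was at 29.1, 30.7 and 26.4 CPM in control and 27.7, 26.3 and 28.6 CPM in cKO, which overlap (-0.06). Psmd2 counts per Psmd1 count, which need no scaling, were 0.854, 0.824 and 1.03 in control and 1.42, 1.28 and 1.19 in cKO, and do not overlap. Psmd4, the most abundant of the base, was at 45.6, 52.5 and 55.6 CPM in control and 54.8, 48.2 and 43.4 CPM in cKO, which overlap (-0.07; interval -0.41 to 0.26).

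The lid holds the deubiquitinase Psmd14, its catalytically inactive partner Psmd7 and further scaffold subunits. Of 8 genes 3 fell and 0 rose, with a median of -0.22. Psmd6 (chromosome 14, 14112174 to 14120984, minus strand) was at 41.1, 36.3 and 38.9 CPM in control and 12.6, 14.7 and 11.3 CPM in cKO. This was the largest difference among the 34 subunits (38.7 ± 2.40 against 12.9 ± 1.71 CPM; -1.59 ± 0.16, SE; edgeR adjusted p = 3.36e-06). Psmd3 was at 37.5, 40.1 and 38.1 CPM in control and 26.7, 27.2 and 25.0 CPM in cKO, and fell by 0.55 on the log2 scale (adjusted p = 0.00654). Psmd12 was at 16.0, 17.6 and 14.0 CPM in control and 9.53, 11.2 and 10.9 CPM in cKO, and fell by 0.59 (adjusted p = 0.0168). Psmd12 lost its call without control replicate 2, cKO replicate 1 or cKO replicate 3 and under the 10 CPM filter, the highest adjusted p being 0.0730. In none of Psmd6, Psmd3 and Psmd12 do the groups overlap.

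Other lid genes differed less or the other way. Psmd7 had the highest fold change of the lid, with 38.6, 38.5 and 53.9 CPM in control and 59.0, 67.8 and 50.2 CPM in cKO. Control replicate 3 lies above cKO replicate 3, and the gene did not pass (0.43; interval 0.06 to 0.81; adjusted p = 0.0591); it passed without control replicate 3, with no filter and under the 10 CPM filter. Psmd8, the most abundant, was at 59.2, 58.2 and 51.2 CPM in control and 56.4, 53.4 and 52.9 CPM in cKO (-0.05; interval -0.36 to 0.26). Psmd13 (-0.36; adjusted p = 0.0592) was apart between the groups and did not pass. Psmd11 (0.11) and Psmd14 (-0.07) overlapped. Summed over the lid, the level was 265 ± 5.54 CPM in control and 228 ± 13.9 CPM in cKO, and without Psmd6 it was 226 ± 6.52 and 215 ± 12.3 CPM. Of the summed difference of -37.6 CPM, -11.7 CPM remained without Psmd6.

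The upstream stretches of Psmd6, which had the largest fall, and of Psmd2, the only rise, are shown to set these side by side. That of Psmd6 (chr14:14120984-14121195, minus strand) ends at the first base annotated in GENCODE, and that of Psmd2 (chr16:20651402-20651651, plus strand) at the base before the start. Capitals mark CCGGAAG, the core of ETS family sites, on either strand, and in Psmd2 also AAGGTCA. The letters AAGGTCA are part of the extended half-site of the estrogen-related receptors, and their match lies on the opposite strand. The rest of the extended site was not searched.
Psmd6: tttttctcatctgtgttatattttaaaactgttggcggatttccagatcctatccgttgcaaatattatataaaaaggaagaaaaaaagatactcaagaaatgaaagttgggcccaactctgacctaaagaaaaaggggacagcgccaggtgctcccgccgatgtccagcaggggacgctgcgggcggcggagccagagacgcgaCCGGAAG
Psmd2: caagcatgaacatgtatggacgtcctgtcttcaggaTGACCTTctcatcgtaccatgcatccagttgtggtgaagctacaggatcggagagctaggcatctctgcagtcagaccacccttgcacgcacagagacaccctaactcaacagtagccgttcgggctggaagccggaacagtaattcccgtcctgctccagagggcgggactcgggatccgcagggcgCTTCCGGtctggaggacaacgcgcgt
The receptor half-site begins at position -214 from the start of Psmd2. The ETS core begins 45 bases before the start of Psmd6 and 26 bases before that of Psmd2, so the same letters stand before the gene that fell most and the gene that rose.

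The chaperones Psmd5, Psmd9 and Psmd10 help to assemble the base and leave before the particle is mature. Psmd5 fell, from 10.5, 6.83 and 9.15 CPM in control to 5.76, 4.74 and 4.35 CPM in cKO (log2 fold change -0.83 ± 0.25, SE; edgeR adjusted p = 0.0126). The gap between control replicate 2 and cKO replicate 1 was narrow, and the call was lost without control replicate 1 or cKO replicate 3, the highest adjusted p being 0.0682. Psmd10 was at 5.98, 7.66 and 6.73 CPM in control and 9.13, 7.18 and 6.74 CPM in cKO (0.18; interval -0.32 to 0.67). Psmd9 (0.15; interval -0.37 to 0.68) overlapped as well.

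**Figure D3:**
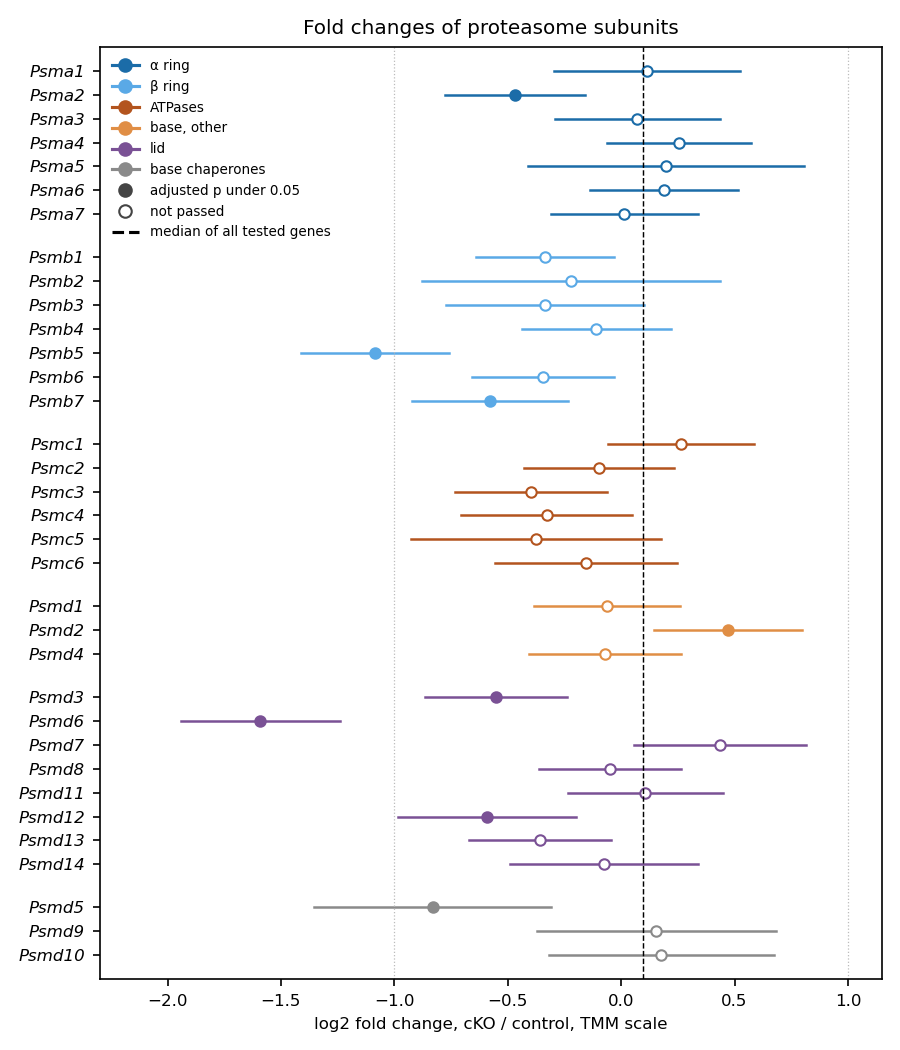
Log2 fold change (cKO over control, TMM scale) of each subunit with its 95% interval, grouped by role; filled points passed an adjusted p of 0.05. The dashed line is the median of all tested genes (0.10) and dotted lines mark 2-fold. The intervals of Psmb5, Psmd6 and Psmd5 reach past 2-fold; on library totals every point lies above 0.

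The core had 3 falls and 0 rises of 14 genes (median -0.16) and the regulatory particle 4 falls and 1 rise of 20 (median -0.09). The order of these medians was not stable: in 4 of 6 fits that each left out 1 library (control replicate 1, control replicate 3, cKO replicate 1 or cKO replicate 2), the regulatory median was the lower one. Under the 10 CPM filter the medians were -0.0049 and 0.13. Summed core counts were 438 ± 9.01 CPM in control and 381 ± 8.85 CPM in cKO, and summed regulatory counts 523 ± 3.72 and 475 ± 20.8 CPM. As shares of the whole library these sums were 0.0144% and 0.0172% in control and 0.120% and 0.151% in cKO. The ratio of core to regulatory counts, which is free of scaling, was 0.862, 0.816 and 0.837 in control and 0.762, 0.809 and 0.835 in cKO. These values overlap, with cKO replicate 1 the lowest (log2 difference -0.06, with an SD between replicates of 0.04 in control and 0.07 in cKO).

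Within the core, the rings differed more. The ratio of α to β counts was 1.03, 1.07 and 1.18 in control and 1.46, 1.58 and 1.39 in cKO. Every cKO library lies above every control library, and the group means were 1.09 ± 0.0791 and 1.48 ± 0.0929. Without Psmb5 the ratio was 1.32, 1.33 and 1.46 in control and 1.67, 1.83 and 1.60 in cKO. Against the non-catalytic subunits Psmb1 to Psmb4 alone it was 1.96, 1.98 and 2.26 in control and 2.43, 2.65 and 2.29 in cKO, where cKO replicate 3 comes close to control replicate 3. A score over chosen genes carries no test here, so these ratios are a description of the 6 libraries.

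**Figure D4:**
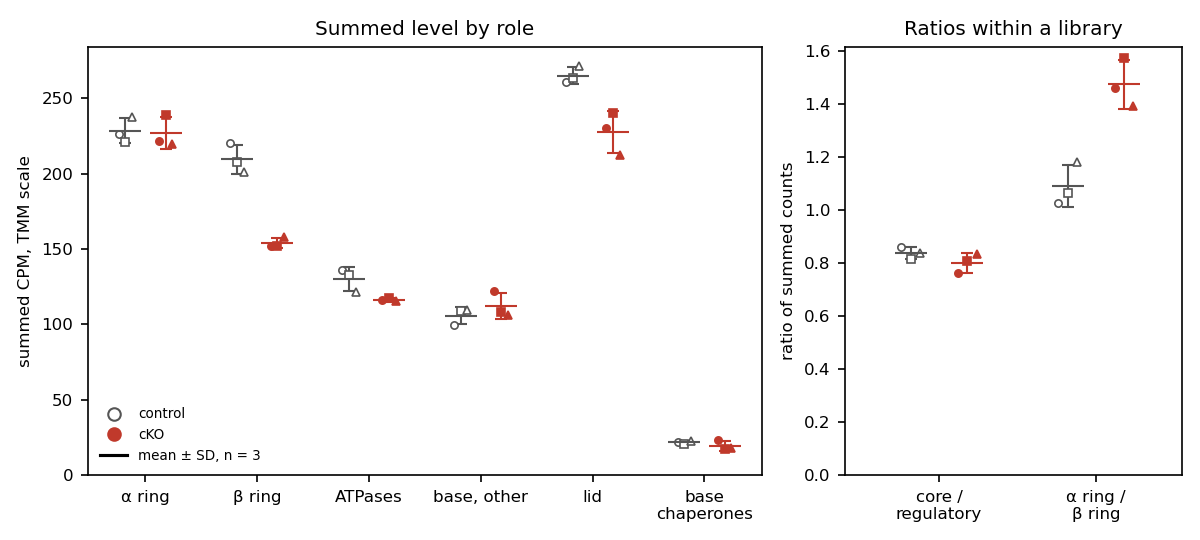
Left, summed CPM (TMM scale) of each role group in each library with mean and SD (n = 3); right, ratios of summed counts within a library. The α ring sums overlap at 228 and 227 CPM while the β ring goes from 210 to 154 CPM, and only the α to β ratio parts the groups on the right; on library totals each sum is higher in cKO.

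Transcript levels differed far more between subunits than between groups, although the mature particle holds the subunits in fixed proportions. A 3' tag library reads transcripts at their end only, so CPM can be set side by side without a length term, but reads lost to copies or to an unannotated end lower a gene's value. In control, means ran from 4.40 CPM for Psma5 to 84.1 CPM for Psma7, a ratio of 19.1 within 1 ring. The next most abundant were Psmb1 (58.7 ± 1.35), Psmd8 (56.2 ± 4.35), Psma2 (53.8 ± 2.24) and Psmd4 (51.3 ± 5.14), whose neighbours in that order did not differ beyond their spread. In cKO the means ran from 4.40 CPM for Psmb2 to 85.0 CPM for Psma7. GENCODE holds pseudogenes named after 3 subunits, Psmb5, Psmb6 and Psmb7. It also places the exon of a gene on the opposite strand within the last 500 bases of Psmb7 (Nek6) and Psmc3. The levels of these genes are less certain. Pseudogenes under other names were not searched, so the other subunits may have copies too.

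The 34 genes lie on 15 chromosomes. A RefSeq promoter window of 300 bases, from 250 before to 50 after the start, was matched for 28 of them by symbol. TGACNNNGC stood in the windows of 5 of the 28 (17.9%; Psmb5, Psmb6, Psmc6, Psmd9 and Psmd12), against 14% of all 27025 genes with a window. AAGGTCA stood in 2 (7.14%; Psma3 and Psmd2), against 5.38%. CCAAT, the NF-Y box, stood in 11 (39.3%), against 41.1%. CCGGAAG stood in 10 (35.7%), against 9.93%, in 9 of 17 regulatory and 1 of 11 core subunits with a window, the latter Psma6. Both strands were searched, and no test was made. The 27025 genes include many whose expression was not tested here, and the shares among tested genes were not computed. Of the 6 subunits with a window that passed, 2 held the antioxidant element, 1 the receptor half-site, 1 the NF-Y box and 3 the ETS core. Among all 28 these counts were 5, 2, 11 and 10, and 6 genes are too few for a comparison.

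Genes that work with the proteasome passed the test in 23 of 43 cases. Of 49 listed genes 46 were in the tables and 43 were tested, of which 9 rose and 14 fell (background 24% and 20.7%), with a median of -0.27. Among the activators that bind the ends of the core, the interferon-induced Psme1 (1.46 ± 0.19, SE) and Psme2 (2.03 ± 0.25) rose, while the nuclear Psme3 (-0.98 ± 0.19) and Psme4 (-1.21 ± 0.16) fell. A copy of Psme2, Psme2b, is in the same tables (1.85 ± 0.20), and the division of reads between the copies is uncertain. Of the core assembly factors Psmg4 rose (1.52) and Psmg3 fell (-0.72). Psmg4 was thinly counted, with 17, 9 and 21 reads in the control libraries. Psmg3 lost its call without control replicate 1, control replicate 3 or cKO replicate 3, the highest adjusted p being 0.0894. Pomp, the maturation protein, was at 56.9 ± 2.95 CPM in control and 64.0 ± 4.77 CPM in cKO (0.17; adjusted p = 0.377). Adjusted p-values of those that passed ran from 1.52e-05 to 0.0186, by edgeR.

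Of the enzymes and subunits bound to the regulatory particle, the deubiquitinase Uchl5 fell (14.9 ± 2.28 to 4.34 ± 0.970 CPM; -1.78 ± 0.23, SE; edgeR adjusted p = 2.45e-05). Adrm1, the subunit that anchors it, did not pass (0.28). Another deubiquitinase, Usp14, rose (0.59; adjusted p = 0.0416). It lost its call in thinned counts and without control replicate 1, control replicate 2, cKO replicate 1 or cKO replicate 3, the highest adjusted p being 0.169. The small lid subunit Shfm1 fell (-0.65). Of the shuttle factors, which carry ubiquitinated proteins to the particle, Rad23b (-0.85), Ubqln1 (-0.92) and Ubqln4 (-0.77) fell. Ubqln4 lost its call in thinned counts and without control replicate 1, control replicate 2, cKO replicate 1 or cKO replicate 3, the highest adjusted p being 0.134. Zfand5, which binds the particle and stimulates it, rose (1.23). Rps27a, which encodes ubiquitin fused to a ribosomal protein, fell (-0.88).

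Among the regulators, Nfe2l1 was at 13.5 ± 1.13 CPM in control and 17.8 ± 0.903 CPM in cKO and did not pass (0.39; interval 0.02 to 0.76; adjusted p = 0.0775). Ngly1, the glycanase that processes the Nfe2l1 protein, fell (-0.84; adjusted p = 0.0238), a call lost without control replicate 1, control replicate 3 or cKO replicate 1 (highest adjusted p 0.111). The protease gene Ddi2 did not pass (-0.04). The related oxidative stress factor Nfe2l2 rose (1.35 ± 0.17, SE; adjusted p = 1.99e-05), and so did Akirin2, a nuclear import factor of proteasomes (0.73; adjusted p = 0.0243). The call of Akirin2 was lost without control replicate 1 (0.47; adjusted p = 0.0982), control replicate 3 or cKO replicate 3. The segregase Vcp, which pulls proteins from membranes and complexes, was at -0.32 (adjusted p = 0.0925), and of its listed cofactors Faf1 fell (-1.01). These adjusted p-values are from edgeR.

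The immune counterparts of the catalytic subunits moved in different directions. Psmb8 replaces Psmb5 in the immunoproteasome, Psmb9 replaces Psmb6 and Psmb10 replaces Psmb7. Psmb8 rose from 8.77, 6.36 and 6.35 CPM in control to 56.7, 31.1 and 47.0 CPM in cKO, and Psmb9 rose by 2.16 on the log2 scale. Psmb9 had only 16, 9 and 26 reads in the control libraries. Psmb10 fell by 2.67, from 220, 165 and 215 CPM to 24.8, 42.0 and 27.3 CPM. Psmb8 counts per Psmb5 count were 0.183, 0.153 and 0.163 in control and 2.91, 1.49 and 2.33 in cKO. Psmb10 counts per Psmb7 count were 8.71, 7.39 and 8.24 in control and 1.53, 2.67 and 1.57 in cKO. In both of these ratios cKO replicate 2 lies nearest to the controls, as it does for the enzyme share. Leukocytes express the immune subunits, and the summed leukocyte markers of cKO replicates 1, 2 and 3 were 305, 129 and 249 CPM; their part in the change was not tested.

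**Figure D5:**
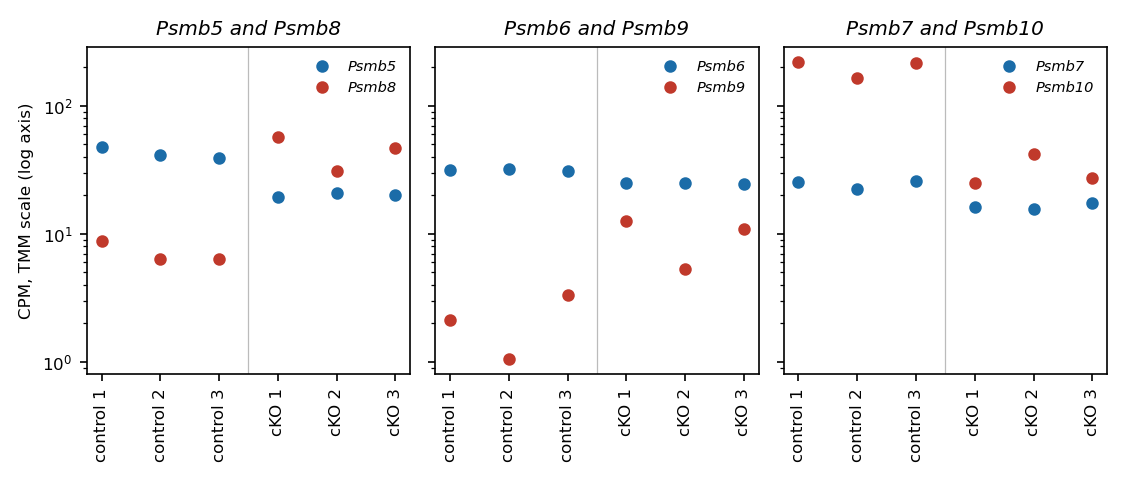
CPM (TMM scale, log axis) of each catalytic subunit and its immune counterpart in each of the 6 libraries. The 3 constitutive genes are lower in each cKO library, Psmb8 and Psmb9 higher and Psmb10 lower; on library totals all 6 genes have a fold change above 0.

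Psmc3ip, taken by its name but no subunit, fell from 4.92, 6.60 and 4.57 CPM in control to 1.30, 1.39 and 1.53 CPM in cKO (log2 fold change -1.93 ± 0.33, SE; edgeR adjusted p = 0.000227). This is a larger fall than that of any subunit. An exon of Mlx lies on the opposite strand within the last 500 bases of the gene, so that reads of the pair may mix.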

How the data were processed

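Gene expression was measured in 6 libraries of 3' tags from primary acinar cells (QuantSeq kit, per the labels' protocols). For each library the authors deposited whole-number counts by gene symbol, with 23282 rows. The submitters' processing notes list Bowtie2, edgeR, mm10 and GRCm38, without roles or versions. The counter, annotation, strand setting and filters are not given in the sources used. PCR copies may be among the reads, as no molecular identifiers are mentioned.

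Groups and replicate numbers came from the titles. The test was the robust quasi-likelihood F test of edgeR 4.0.16 (R 4.3.3) after filterByExpr (minimum count 10, minimum total 15) and TMM scaling. P-values were adjusted over the 13132 tested genes by the Benjamini-Hochberg method (threshold 0.05). The SE is the log2 fold change divided by the square root of F, and its 95% interval uses the fit's degrees of freedom. A prior count of 2 entered log2 CPM. The members and lists were chosen with earlier results of these data known. Named members follow a rule: the catalytic subunits and, per role, those of smallest p, highest level, and highest and lowest fold change; further called members and partner genes were added with values in view. On simulated data with 12310 genes tested, edgeR recovered 6.67% of 1.5-fold, 31.2% of 2-fold and 77.4% of 4-fold changes, over genes of all levels, with 10 false calls among 12124 unchanged genes. The simulation changed 200 genes, whereas 44.7% of tested genes passed in the data, so its adjusted p threshold was harder to reach. These rates are not the sensitivity for the subunits.

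Coordinates are from GENCODE M21 (GRCm38), and all 34 symbols matched 1 gene. Promoter sequences are from RefSeq (GRCm38.p6). Alternatives were library totals, RLE factors, library sizes without enzyme genes, DESeq2 1.42.0, other filters, thinned counts, a replicate block and each library left out. Some partner genes are counted in their list but not reported singly here.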

Additional observations from a re-analysis of the deposited data

How the results depend on the processing

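Directions rest on the scale. On library totals 34 subunits rose and 0 fell (core 14 and 0, regulatory 20 and 0), the medians were 3.13 and 3.18, and 42 partner genes rose and 0 fell. There the fold changes of genes below 0 on the TMM scale were Psma2 2.80, Psmb1 2.94, Psmb2 3.09, Psmb3 2.92, Psmb4 3.18, Psmb5 2.18, Psmb6 2.93, Psmb7 2.70, Psmc2 3.15, Psmc3 2.88, Psmc4 2.96, Psmc5 2.94, Psmc6 3.12, Psmd1 3.22, Psmd3 2.71, Psmd4 3.21, Psmd5 2.46, Psmd6 1.65, Psmd8 3.23, Psmd12 2.66, Psmd13 2.91, Psmd14 3.21 and Psmc3ip 1.34. For partner genes they were Psme3 2.32, Psme4 2.05, Psmg3 2.55, Psmb10 0.51, Shfm1 2.64, Uchl5 1.43, Rad23b 2.40, Ubqln1 2.34, Ubqln4 2.48, Ngly1 2.44, Faf1 2.21 and Rps27a 2.29.

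With at least 10 CPM in 3 libraries, the core had 2 rises and 1 fall, the regulatory particle 3 and 2, all subunits 5 and 3, with medians of -0.0049 and 0.13; Psmb4 was at 0.11, Psmc2 0.12, Psmc6 0.062, Psmd1 0.16, Psmd4 0.15, Psmd8 0.17 and Psmd14 0.14. That filter kept 28 subunits, so the others have no value. Each of these 28 lay higher than after filterByExpr, by a similar amount. Psma1 went from 0.11 to 0.33, Psmb5 from -1.09 to -0.87 and Psmd6 from -1.59 to -1.38. The changes of sign under this filter were thus part of a shift common to the subunits. With no filter 2 regulatory genes rose and the core median was -0.12. In counts thinned to equal effective size, Psma3 was at -0.026, Psma7 -0.030 and Psmd9 -0.13. Leaving out 1 library gave 0 to 2 rises and 4 to 8 falls (regulatory 0 to 2 and 2 to 5), and medians of -0.19 to -0.074 in the core and -0.13 to -0.044 in the regulatory particle. The regulatory median lay below that of the core in 4 of these 6 fits. Under it Psma7 ran from -0.066 to 0.067, Psmb2 from -0.46 to 0.0049, Psmd4 from -0.16 to 0.013, Psmd14 from -0.17 to 0.033 and Psmd9 from -0.0085 to 0.30. The causes were not tested. Psmb5, Psmd6 and Psmd3 passed in all 13 alternatives other than library totals, with Psmb5 between -1.14 and -0.87.

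The log2 core to regulatory difference was 0.0071 as a mean over genes of log2 CPM. The log2 α to β difference was 0.31 without Psmb5 and 0.25 without Psmb5, Psmb6 and Psmb7, alternatives chosen after the data were seen. Replicate numbers were shared by both groups, but same-numbered libraries did not deviate together (correlations 0.01, -0.03 and -0.01). Fitted with a replicate block, 1 subunit rose and 7 fell, with medians of -0.16 and -0.09. Control libraries held as few as 28 counts of a subunit, which limits the precision for Psma5 and Psmb2.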
